A study of Mus musculus with 2 samples.

Results

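A set of 9 genes of interferon gamma and type I interferon signalling was followed through the immune cells of B16-F10 tumors. They are the cytokine gene Ifng, its receptor chains Ifngr1 and Ifngr2, the type I interferon receptor chains Ifnar1 and Ifnar2, the kinases Jak1 and Jak2, the transcription factor Stat2 and the inhibitor Socs1. The members were taken by symbol from the 31253 genes in the files, and all 9 were found.

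B16-F10 melanoma cells (200000 per mouse) were grown for 10 days under the skin of C57BL/6 mice, and CD45+ cells were sorted for single-cell RNA-seq on the BD Rhapsody system, which captures cells in microwells with barcoded beads. Tumor pieces of 100 mm3 from 3 mice were pooled for each of 2 libraries. One was labelled Irg1+/+ and is called wild-type below, and the other was labelled Irg1-/-, from mice that lack Irg1 in the whole body and, by the study's methods, were backcrossed to C57BL/6J. Irg1, listed as Acod1, encodes the enzyme that makes itaconate. No treatment other than the tumor is named in the labels. With 1 library per genotype no test between genotypes is possible, and what the genotype did cannot be told apart from anything else that differed between the pools. Intervals given below are exact 95% intervals and cover counting error only.

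Cells with over 200 genes and under 10% mitochondrial unique molecular identifiers (UMIs) were kept, 6284 of 6408 from the wild-type library and 5794 of 5896 from the other. They held 42105693 and 35307041 UMIs outside mitochondrial genes, with medians of 4528 and 4594.5 UMIs per cell, and 36 cell barcodes occurred in both files. Ptprc, the gene of CD45, had a UMI in 88.0% and 91.5% of the kept cells. Cells were named by gates on marker genes (the Cd3 and T cell receptor genes for T cells, C1qa and others for macrophages, and so on), and a T cell that met no subset gate is called other T. Foxp3, Ikzf2, Ctla4 and Neb, which lead the regulatory T class, were also among the 10 leading genes of other T, so that class holds T cells with regulatory T genes that did not meet the regulatory gate. In both libraries every gate marker in the files was higher in its class than in the rest, which the gates themselves fix. Of the classes, 14 had at least 50 cells in both libraries. Levels are UMIs of a gene in 1000000 UMIs of the class (CPM), and pairs of values give the wild-type library first.

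Acod1, the gene targeted, was not lower in the sum of kept cells of the library labelled Irg1-/-. That sum was 87.8 and 108 CPM. In macrophages it was 91.2 and 138 CPM, in monocytes 164 and 136 CPM, and in neutrophils, where it was highest, 2201 and 1830 CPM. UMIs are summed over the whole gene here, so a transcript left by a deletion could not be told from an intact one. Every direction given below rests on the labels of the libraries.

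Interferon gamma is made mainly by activated T cells and NK cells and binds a receptor of paired chains, Ifngr1, which holds the ligand, and Ifngr2, which is needed for the signal. Jak1 sits on the Ifngr1 chain and Jak2 on the Ifngr2 chain, and together they pass the signal on to the nucleus. Type I interferons bind Ifnar1 and Ifnar2, which signal through Jak1 and Tyk2 to Stat2 and Irf9, while Socs1 is induced by these signals and blocks the Jak kinases. In tumors interferon gamma is known for raising antigen presentation and the chemokines Cxcl9 and Cxcl10 in myeloid cells.

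By the GENCODE annotation of GRCm38, Ifng lies on chr10:118441046-118445892, Ifngr1 on chr10:19591949-19610229 and Stat2 on chr10:128270559-128292849, all on the plus strand. Ifnar2, Il10rb, Ifnar1 and Ifngr2 lie in this order, also on the plus strand, within 193 kb of chr16:91372783-91565623. Socs1 lies on the minus strand at chr16:10782240-10785536. The promoters of Stat2 and Socs1 are shown because these members were past 1.5-fold between the libraries in monocytes, macrophages, cDC1 and cDC2 alike. Each run is the 250 bases before the start site of RefSeq (GRCm38.p6), read 5′ to 3′ on the strand of the gene. Capitals mark matches to an interferon-stimulated response element, searched on both strands as GAAA, any 2 bases and GAAA.

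Stat2, chr10:128270248-128270497, plus strand: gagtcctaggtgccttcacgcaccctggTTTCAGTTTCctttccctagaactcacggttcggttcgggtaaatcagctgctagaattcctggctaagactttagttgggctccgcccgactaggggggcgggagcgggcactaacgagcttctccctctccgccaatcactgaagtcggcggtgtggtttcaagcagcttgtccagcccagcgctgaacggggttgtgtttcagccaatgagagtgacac

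Socs1, chr16:10785537-10785786, minus strand: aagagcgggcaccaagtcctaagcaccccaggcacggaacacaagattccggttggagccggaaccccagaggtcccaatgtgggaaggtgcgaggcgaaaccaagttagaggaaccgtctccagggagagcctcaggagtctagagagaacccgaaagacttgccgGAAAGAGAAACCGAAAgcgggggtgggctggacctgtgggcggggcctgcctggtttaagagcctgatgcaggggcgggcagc

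The Stat2 run holds 1 match, which starts 222 bases before the start site, and the Socs1 run holds 2 matches that overlap, which start 83 and 77 bases before it. Among 32851 RefSeq promoters of 300 bases (250 before the start site and 50 after it), 3.44% held such a match. A gamma-activated site, searched as TTCNNNGAA, was found in the promoters of Ifng, Ifnar1 and Ifnar2 and in 8.30% of all promoters. A match is a description of letters, and no binding was measured in these libraries.

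Ifng was carried by T cells and NK cells. In the wild-type library its level was 335 CPM in CD8 T cells (319 to 351, 1723 UMIs in 554 cells), 213 CPM in other T cells (195 to 232, 517 UMIs) and 191 CPM in NK cells (167 to 218, 230 UMIs in 351 cells). In the library labelled Irg1-/- it was 311 CPM in CD8 T cells (293 to 329.8, 1096 UMIs in 328 cells), 325 CPM in other T cells (288 to 364, 287 UMIs) and 261 CPM in NK cells (239 to 285, 519 UMIs in 646 cells). CD8 T cells were highest in the wild-type library, clear of other T cells, whereas the intervals of these classes overlapped in the second library, where both were above NK cells. Other T cells of the library labelled Irg1-/- stood at 209 CPM without their highest cell, below NK cells, so that place rests on 1 cell. Among the 14 larger classes CD4 T cells came next at 129.7 and 97.9 CPM, and regulatory T cells (Foxp3) were at 31.7 and 30.2 CPM. Gamma delta T cells (Trdc), with 43 and 31 cells, held 9 Ifng UMIs in each library, 73.8 and 109.6 CPM.

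Outside these lymphocytes Ifng was mostly at the level of free RNA, the RNA of other cells that enters a barcode. Free RNA was estimated from C1qa, C1qb and C1qc in lymphocytes and from Cd3e, Cd3d and Cd3g in the other classes. The estimate can exceed the level measured, as for Ifngr2 in wild-type NK cells (20.8 CPM measured, 33.6 CPM estimated). In CD8 T cells labelled Irg1-/- Ifngr2 was 23.5 CPM against 39.2 CPM. Ratios given below with free RNA subtracted may thus be corrected too far. For macrophages free RNA amounted to 22.1 and 20.3 CPM of Ifng, against 19.2 and 23.5 CPM measured. For monocytes it amounted to 18.1 and 17.5 CPM, against 15.0 and 18.6 CPM measured. These myeloid values are read as background. Type 1 dendritic cells (cDC1) of the wild-type library stood above it, at 35.0 CPM against 8.12 CPM in the other, but 1 cell held 53 of their 94 UMIs. That cell also had 25 UMIs of T cell markers, and without it the level was 15.4 CPM, below the free RNA estimate of 18.6 CPM.

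**Figure D1:**
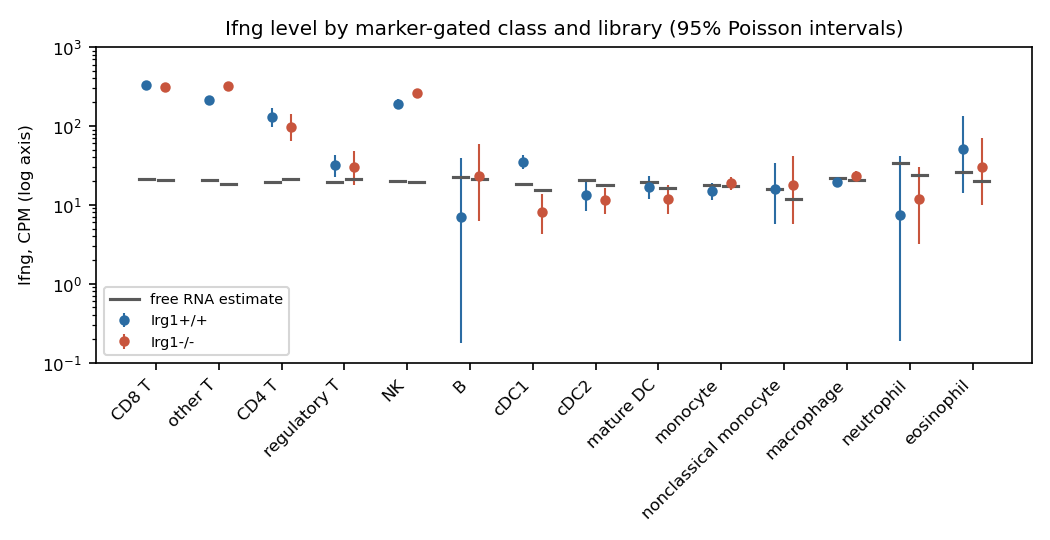
Ifng in CPM (log axis) in 14 marker-gated classes, with 1 point per library, 95% Poisson intervals and grey bars at the level estimated for free RNA. CD8 T, other T, CD4 T and NK cells stand above the bars in both libraries, and macrophages and monocytes lie close to them at 15.0 to 23.5 CPM.

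Few cells held much of the Ifng. In the wild-type library 33 of the 554 CD8 T cells had 10 or more Ifng UMIs and held 58.6% of the Ifng of their class, and 1 of them had 361 UMIs, or 21.0% of it. In the library labelled Irg1-/- 27 of the 328 CD8 T cells had 10 or more and held 52.5%, with 86 UMIs in the highest cell. Without the highest cell of each library the CD8 T level was 265 and 289.7 CPM, so the order of the libraries turned. NK cells had 0 and 1 cells at 10 or more UMIs, with 6 and 11 UMIs in the highest cell. Their median depth was 2783 and 2612.5 UMIs, against 6562.5 and 8443.5 in CD8 T cells, and the part of depth in this contrast was not tested.

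The share of cells with an Ifng UMI differed between the libraries by less than its counting error once depth was set equal. After each cell was thinned to 2000 UMIs, 26.6% (22.8 to 30.6) of wild-type CD8 T cells and 30.2% (24.9 to 35.9) of those in the library labelled Irg1-/- had one. Of NK cells 28.7% (23.5 to 34.3) and 29.8% (25.8 to 34.1) did. The background in thinned macrophages was 3.54% and 4.48%, from cells with medians of 8611.5 and 8476 UMIs before thinning. Without thinning the shares were 54.2% and 57.9% of CD8 T cells, 35.6% and 36.8% of NK cells and 17.7% and 13.8% of macrophages. Thinning left out shallower cells, 46 and 43 CD8 T cells, 65 and 153 NK cells and 221 and 135 macrophages.

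Between the libraries Ifng differed little in CD8 T cells, with a log2 ratio (Irg1-/- labelled over wild-type) of -0.11 (-0.22 to 0.003). It was 0.16 without the 1% of cells with the most Ifng and -0.57 without the 5% of cells with the most UMIs. In NK cells the log2 ratio was 0.45 (0.22 to 0.68), short of the 1.5-fold used here as the size worth naming, and 0.21 in thinned cells. In other T cells it was 0.61 (0.40 to 0.82), past 1.5-fold, where 6.11% of all genes with at least 20 UMIs were as far up and 10.2% as far down. But 1 cell of the library labelled Irg1-/- held 107 of 287 UMIs. Without the 1% of cells with the most Ifng this ratio turned to -0.13, and without the barcodes found in both files it was 0.35. Over all kept cells Ifng stood at 78.8 and 75.2 CPM, a log2 ratio of -0.07 (-0.14 to 0.01).

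For CD8 T and NK cells the share of the Ifng of a library moved between the libraries in the direction of their cell numbers. CD8 T cells made up 8.82% and 5.66% of the kept cells, and NK cells 5.59% and 11.1%. By summed UMIs CD8 T cells held 51.9% (50.2 to 53.7) of the wild-type Ifng and 41.3% (39.4 to 43.2) of that in the library labelled Irg1-/-. NK cells held 6.93% (6.09 to 7.85) and 19.5% (18.1 to 21.1). The T classes together held 70.7% and 54.2%, and with NK cells 77.6% and 73.7%. Cells that met no gate (1255 and 877 cells) held 5.61% and 5.80% of the Ifng. Ambiguous cells (224 in each library) held 2.89% and 5.76%, at 60.4 and 105 CPM. In these a class of another cell family scored above 0.5 of the best class, by marker level over the cut of the gate. Cells that met several gates of the same family went to the class with the highest score. T and NK cells share a family, as do monocytes, macrophages and cDC2. With the same weight for every cell (the mean of each cell's CPM) CD8 T cells held 35.7% and 19.7% and NK cells 15.9% and 39.3%. CD8 T cells were above NK cells in the wild-type library by both measures, while in the library labelled Irg1-/- they were above by summed UMIs and below by cell means. Cell numbers of the 3 pooled mice and the genotype cannot be told apart here.

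**Figure D2:**
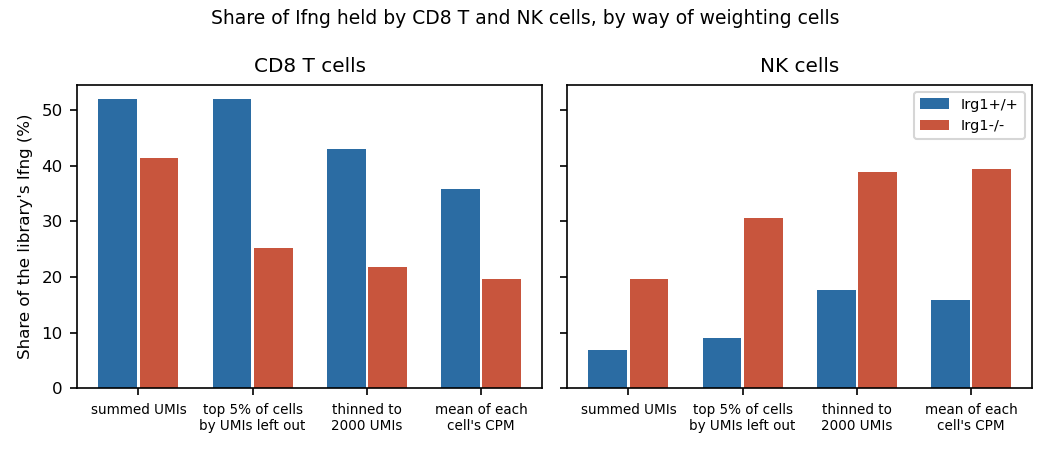
Share of the Ifng of a library (%) held by CD8 T cells (left) and NK cells (right), with 1 bar per library, for summed UMIs and 3 other ways of weighting cells. NK bars are higher in the library labelled Irg1-/- in each pair, from 6.93% against 19.5% by summed UMIs to 15.9% against 39.3% by the mean of each cell's CPM.

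Cycling CD8 T cells (Mki67, Top2a, Birc5 and Ube2c) did not stand above the rest for Ifng in CPM. In the wild-type library 143 cycling cells had 241 CPM and 411 others 408 CPM, or 284 CPM without their highest cell. In the library labelled Irg1-/- 135 cycling cells had 283 CPM and 193 others 357 CPM, or 304 CPM without theirs. Cycling cells were deeper, at medians of 14917 and 14287 UMIs against 4678 and 4353. More of them had an Ifng UMI, 76.9% against 46.2% of the others in the wild-type library and 71.9% against 48.2% in the other. Depth was not set equal for these shares.

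The chains of the interferon gamma receptor had different orders over the classes. Among the 14 classes Ifngr1 was highest in NK cells, at 1737 CPM (1663 to 1813) among wild-type cells and 1554 CPM (1499 to 1609) among those labelled Irg1-/-. CD4 T cells followed at 1065 and 923 CPM, regulatory T cells at 878 and 769 CPM, and CD8 T cells lay at 476 and 407 CPM. The few gamma delta T cells had 1476 and 1036 CPM. Among myeloid cells nonclassical monocytes were highest at 713 and 697 CPM, monocytes had 304 and 311 CPM and macrophages 169.7 and 182 CPM. Mature dendritic cells (Ccr7 and others) were the lowest of the 14 classes at 110.2 and 115 CPM, with free RNA estimated at 92.97 and 81.4 CPM.

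Ifngr2 was highest of these classes in nonclassical monocytes, at 215 CPM (171 to 267) and 199 CPM (151 to 259). Monocytes had 196 and 198 CPM, mature dendritic cells 184 and 184 CPM and macrophages 167 and 179 CPM, and each of these classes overlapped the next in its interval. NK cells had 20.8 CPM (13.5 to 30.7) and 34.7 CPM (27.0 to 43.9), against free RNA of 33.6 and 35.9 CPM. CD8 T cells had 32.1 and 23.5 CPM, against free RNA of 35.4 and 39.2 CPM. CD4 T cells had 34.7 and 38.5 CPM, against 32.8 and 39.5 CPM. Ifngr2 was thus not detectable above background in NK, CD8 T or CD4 T cells at this depth. Gamma delta T cells, with 15 UMIs in each library, were apart from the other T classes at 123 CPM (68.9 to 203) and 183 CPM (102 to 301), B cells had 76.6 and 127 CPM and plasmacytoid dendritic cells 145 and 219 CPM.

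**Figure D3:**
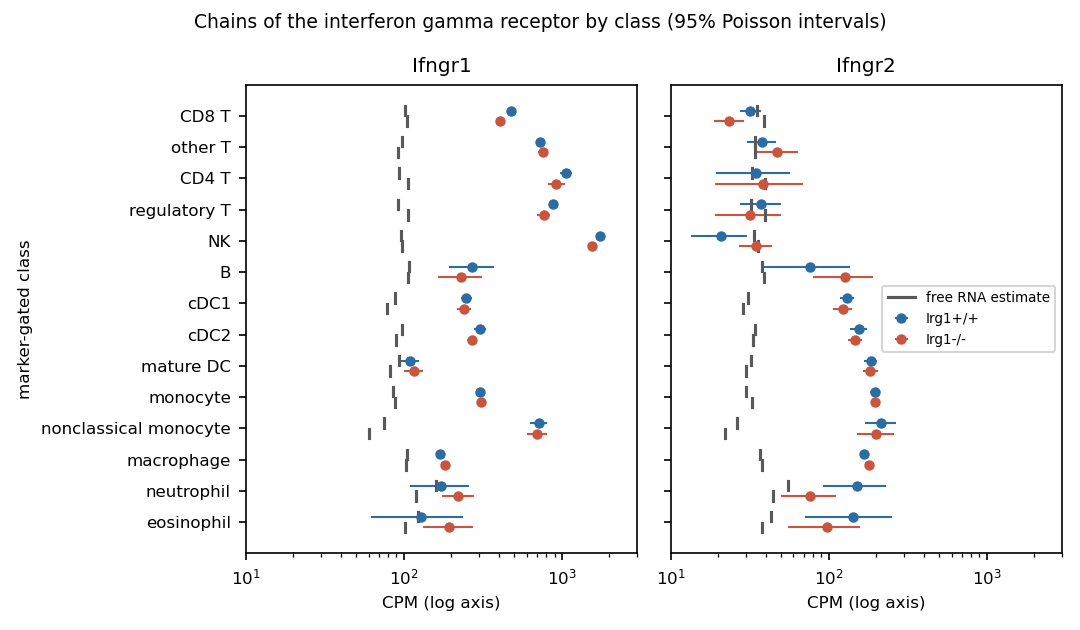
Ifngr1 (left) and Ifngr2 (right) in CPM on log axes in 14 classes, with 1 point per library, 95% Poisson intervals and grey bars at the free RNA estimate. NK cells are highest for Ifngr1 (1737 and 1554 CPM) and at the free RNA bar or below it for Ifngr2 (20.8 and 34.7 CPM).

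The share of cells with a UMI of both chains was highest in monocyte classes at equal depth. In cells thinned to 2000 UMIs it was 23.8% and 29.3% in nonclassical monocytes, 10.8% and 12.6% in monocytes, 6.53% and 8.95% in macrophages, 4.53% and 1.75% in CD8 T cells and 2.45% and 5.68% in NK cells. Without thinning it was 42.1% and 45.9% in nonclassical monocytes, 36.7% and 38.7% in monocytes, 48.5% and 46.5% in macrophages, 19.3% and 17.7% in CD8 T cells and 5.41% and 9.13% in NK cells. Macrophages were above nonclassical monocytes where their greater depth was left in, and the lymphocyte shares hold free RNA of Ifngr2.

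Neither chain moved by 1.5-fold between the libraries in the classes with the most UMIs of it. For Ifngr1 the log2 ratio was -0.16 (-0.24 to -0.08) in NK cells, -0.23 (-0.32 to -0.13) in CD8 T cells, 0.03 (-0.07 to 0.13) in monocytes and 0.10 (-0.0007 to 0.20) in macrophages. For Ifngr2 it was 0.01 (-0.11 to 0.14) in monocytes, 0.10 (-0.01 to 0.20) in macrophages and -0.003 (-0.21 to 0.21) in mature dendritic cells. The Ifngr2 ratios past 1.5-fold among the 14 classes came from small or background sums, 0.74 in NK cells (25 and 69 UMIs), 0.73 in B cells (11 and 22 UMIs) and -0.97 in neutrophils (20 and 26 UMIs). Ifngr1 passed it in eosinophils only, at 0.59 (-0.47 to 1.78) on 10 and 32 UMIs, and with free RNA subtracted also in mature dendritic cells, at 0.92 in place of 0.07.

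The type I interferon receptor chains were highest in plasmacytoid dendritic cells (pDC), known for making type I interferon. On 48 and 37 cells Ifnar1 stood at 335 CPM (271 to 408) and 328 CPM (254 to 417), and Ifnar2 at 207 CPM (158 to 266) and 224 CPM (163 to 299). Over the 14 larger classes Ifnar1 ranged from 70.8 CPM in nonclassical monocytes to 175 CPM in regulatory T cells in the wild-type library, and from 46.3 CPM in nonclassical monocytes to 161 CPM in CD4 T cells in the other. Neighbors in these orders overlapped throughout. Ifnar2 stood at 71.1 and 71.3 CPM in monocytes, 53.4 and 63.2 CPM in macrophages, 39.1 and 40.8 CPM in NK cells and 17.8 and 24.4 CPM in mature dendritic cells. In type 2 dendritic cells (cDC2) Ifnar1 was 140.0 and 101 CPM, a log2 ratio of -0.48 (-0.73 to -0.22), and in CD8 T cells 121 and 92.2 CPM, -0.39 (-0.59 to -0.19). Both were within 1.5-fold, but with free RNA subtracted the cDC2 ratio was -0.63, past it, and the CD8 T ratio -0.57. For Ifnar2 the subtracted ratio was 1.02 in place of 0.46 in mature dendritic cells (39 and 47 UMIs), past 1.5-fold. In CD8 T cells the Ifnar2 ratio was -0.52 in place of -0.10.

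Jak1 and Jak2 differed by lineage. Among the 14 classes Jak1 was highest in NK cells at 1268 CPM (1205 to 1333) and 1179 CPM (1132 to 1228), then in B cells at 808 and 640.4 CPM, and lowest in cDC1 at 174 and 158 CPM. Jak2 was highest in mature dendritic cells at 931 CPM (891 to 973) and 844 CPM (804 to 887), then in cDC2 at 552 and 552 CPM, and low in macrophages at 94.1 and 120.0 CPM and in CD8 T cells at 120.1 and 106 CPM. The NK and mature dendritic cell values stood clear of the next class in both libraries. Jak1 was past 1.5-fold in 0 of the 14 classes. Jak2 was past it in neutrophils alone, at -0.63 (-1.24 to 0.001) on 37 and 61 UMIs. In macrophages the log2 ratio of Jak2 was 0.35 (0.22 to 0.48), within 1.5-fold, with free RNA estimated at 62.9 and 66.0 CPM. With free RNA subtracted it was 0.77, past 1.5-fold, and in CD8 T cells the ratio was -0.61 in place of -0.17.

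**Figure D4:**
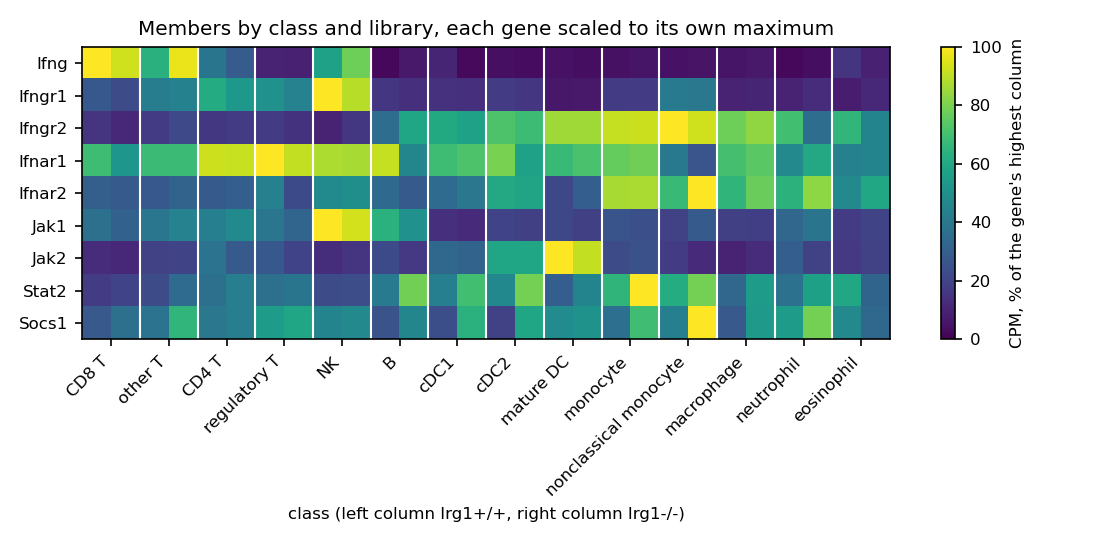
The 9 members in 14 classes (columns in pairs, wild-type left and Irg1-/- labelled right), as CPM in % of the highest column of the gene. Ifng is bright in CD8 T, other T and NK cells, Ifngr1 and Jak1 in NK cells, Jak2 in mature dendritic cells and Ifngr2 in the monocyte classes, and the right column is brighter than the left for Stat2 and Socs1 in monocytes, macrophages, cDC1 and cDC2.

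Stat2 and Socs1 were the members that differed between the libraries in several large classes. Stat2, which acts with Irf9 to carry the type I interferon signal, stood in the wild-type library at 197 CPM (184 to 210.4) in monocytes, 99.9 CPM (94.0 to 106) in macrophages, 131 CPM (117 to 145) in cDC1 and 141 CPM (123 to 159) in cDC2. In the library labelled Irg1-/- it stood at 301 CPM (288 to 315) in monocytes, 166 CPM (157 to 176) in macrophages, 209.9 CPM (188 to 234) in cDC1 and 238 CPM (219.9 to 258) in cDC2. All 4 classes were higher in the second library and their intervals did not overlap. The log2 ratio was 0.61 (0.50 to 0.73) in monocytes, 0.73 (0.61 to 0.85) in macrophages, 0.68 (0.46 to 0.90) in cDC1 and 0.76 (0.55 to 0.98) in cDC2. Of all genes with at least 20 UMIs, 5.54% in monocytes, 5.11% in macrophages, 6.64% in cDC1 and 6.3% in cDC2 were at least 1.5-fold higher in that library.

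NK and CD8 T cells were within 1.5-fold for Stat2. It was 69.8 and 70.9 CPM in NK cells, a log2 ratio of 0.02 (-0.38 to 0.43), and 53.2 and 61.0 CPM in CD8 T cells, 0.20 (-0.07 to 0.46). Free RNA of Stat2 was estimated at 28.7 and 45.8 CPM in NK cells and 30.2 and 49.97 CPM in CD8 T cells. With free RNA subtracted the ratio was -0.72 in NK cells and -1.05 in CD8 T cells, while it was 0.61 in monocytes and 0.76 in macrophages. In other T cells Stat2 was 68.7 and 105 CPM, 0.61 (0.23 to 0.99), and in mature dendritic cells 90.2 and 136 CPM, 0.59 (0.32 to 0.86), though this last ratio was 0.08 by the mean of each cell's CPM. Plasmacytoid dendritic cells had 279 CPM (222 to 347) and 482 CPM (391 to 588), above each of the 14 larger classes.

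Socs1, the inhibitor of the Jak kinases, differed by more in these classes. In the wild-type library it stood at 59.9 CPM (52.9 to 67.6) in monocytes, 46.0 CPM (42.0 to 50.3) in macrophages, 39.1 CPM (31.96 to 47.3) in cDC1 and 31.7 CPM (23.9 to 41.2) in cDC2. In the library labelled Irg1-/- it stood at 113 CPM (105 to 122) in monocytes, 88.0 CPM (81.4 to 94.96) in macrophages, 104 CPM (89.1 to 121) in cDC1 and 96.7 CPM (85.2 to 109) in cDC2. No interval overlapped its partner, and cDC2, the lowest of the 14 classes in the wild-type library, was not separable from macrophages in the other. The log2 ratio was 0.92 (0.71 to 1.13) in monocytes, 0.94 (0.77 to 1.11) in macrophages, 1.42 (1.06 to 1.78) in cDC1 and 1.61 (1.19 to 2.06) in cDC2. Nonclassical monocytes had 70.8 and 164 CPM on 27 and 46 UMIs, 1.21 (0.49 to 1.95).

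Mature dendritic cells and NK cells were nearly level for Socs1. Mature dendritic cells had 78.8 and 83.7 CPM, a log2 ratio of 0.09 (-0.23 to 0.41), and NK cells had 74.0 and 77.0 CPM, 0.06 (-0.33 to 0.45). These intervals lie below those of cDC1 and cDC2, but the difference was not tested, since cells of 1 library are not replicates. CD8 T cells had 45.5 and 60.1 CPM, 0.40 (0.13 to 0.68), and other T cells 62.1 and 107 CPM, 0.79 (0.40 to 1.17). Free RNA of Socs1 was estimated at 14.3 and 25.8 CPM in CD8 T cells and at 14.8 and 25.1 CPM in macrophages. With it subtracted the ratio was 0.15 in CD8 T cells and 0.99 in macrophages.

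**Figure D5:**
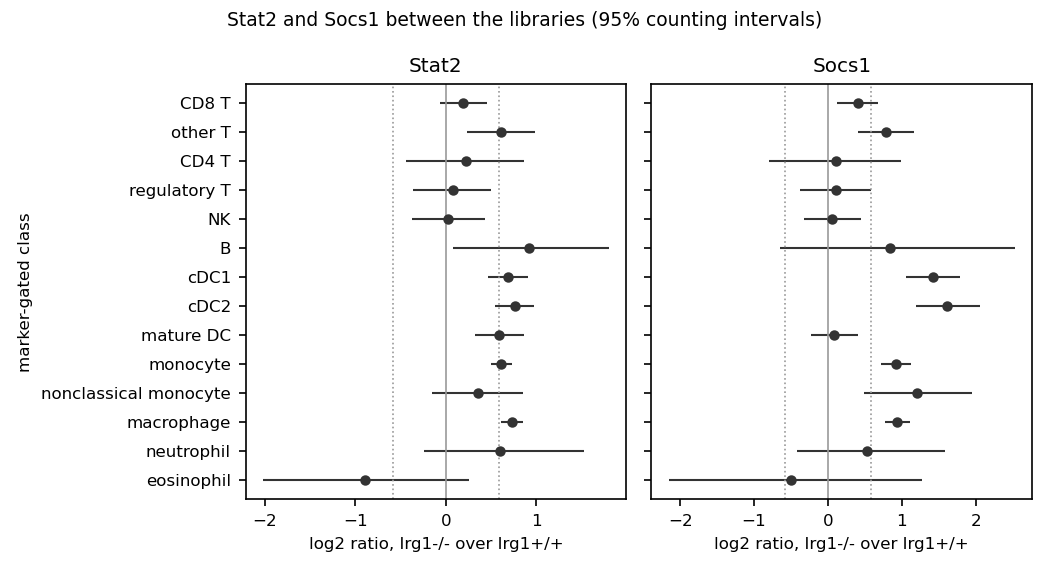
Log2 ratio of the library labelled Irg1-/- over the wild-type library for Stat2 (left) and Socs1 (right) in 14 classes, with exact 95% counting intervals and dotted lines at 1.5-fold either way. cDC1, cDC2, monocytes and macrophages lie to the right of the dotted line for both genes, and NK cells lie at 0.02 and 0.06.

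Monocytes and macrophages were also split by their UMIs of the interferon-induced chemokines Cxcl9 and Cxcl10, a split made after the class values were seen. Of 862 and 1194 monocytes and 956 and 783 macrophages, those that fell between the groups named below were left out. Among monocytes with at least 3 such UMIs (347 and 555 cells) Socs1 stood at 89.3 and 153 CPM, a log2 ratio of 0.78 (0.53 to 1.02). Among monocytes with none (284 and 274 cells) it stood at 25.9 and 59.1 CPM, 1.19 (0.54 to 1.87). Socs1 was thus lower in monocytes without these chemokines in both libraries, and higher in the library labelled Irg1-/- in both of these groups. For Stat2 the monocyte values were 243 and 325 CPM with the chemokines, 0.42 (0.27 to 0.57), and 144 and 307 CPM without them, 1.09 (0.81 to 1.37).

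In macrophages with at least 3 such UMIs (510 and 449 cells) Socs1 was 47.9 and 99.7 CPM, 1.06 (0.87 to 1.25). In those with none (212 and 145 cells) it was 29.7 and 56.3 CPM, 0.92 (0.01 to 1.87). Stat2 was 100.4 and 168 CPM in the first group and 107 and 169 CPM in the second, so in macrophages it did not follow the chemokines within a library. Depth went with the split, at medians of 14842 and 12047 UMIs against 1042.5 and 1416 in macrophages. In monocytes the medians were 5451 and 6019 UMIs against 4170 and 3986. The part of depth was not tested.

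Counted over 9 members and 14 classes, 116 of 126 pairs had at least 20 UMIs, of which 18 were at least 1.5-fold higher in the library labelled Irg1-/- and 7 lower. Stat2 made up 8 of the 18 and Socs1 6. The remaining 4 were Ifng in other T cells, Ifngr1 in eosinophils and Ifngr2 in NK and B cells. The 7 lower pairs were Ifng in cDC1, Ifngr2 and Jak2 in neutrophils, Ifnar1 in B cells and nonclassical monocytes, Ifnar2 in regulatory T cells and Stat2 in eosinophils.

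Read by class, the members stood beside the share of all genes as follows. In CD8 T cells 0 of 9 members passed 1.5-fold, beside 3.31% of genes higher and 7.9% lower, and in CD4 T cells 0 of 8, beside 10.4% of genes higher and 14.5% lower. In other T cells 3 of 9 were higher (Ifng, Stat2 and Socs1) and 0 lower, beside 6.11% of genes higher and 10.2% lower. In NK cells 1 of 9 was higher, beside 6.15% of genes higher and 8.32% lower, and in regulatory T cells 1 of 9 was lower, beside 6.79% of genes higher and 12.4% lower. Monocytes, macrophages and cDC2 each had 2 of 9 higher and 0 lower. There 5.54%, 5.11% and 6.3% of all genes were higher and 6.22%, 6.45% and 9.2% lower. Of the 9, cDC1 had 2 higher and 1 lower, beside 6.64% of genes higher and 7.95% lower. Mature dendritic cells had 1 of 9 higher, beside 6.85% of genes higher and 8.73% lower. Smaller classes had wider backgrounds, namely nonclassical monocytes (1 higher and 1 lower of 8, beside 9.98% of genes higher and 11.9% lower), B cells (2 and 1 of 6, beside 13.2% of genes higher and 13.9% lower), neutrophils (1 and 2 of 8, beside 13.3% of genes higher and 19% lower) and eosinophils (1 and 1 of 5, beside 15.9% of genes higher and 15.6% lower). Over all kept cells Stat2 and Socs1 were the 2 members past it, both higher, beside 5.61% of genes higher and 10% lower. In monocytes, macrophages and cDC2 the members past the threshold were Stat2 and Socs1.

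Other genes of the pathway were followed in lists. Of 9 other inhibitors, Usp18, which blocks signalling at Ifnar2, was past 1.5-fold in macrophages (30.6 and 49.4 CPM), cDC1 (28.7 and 45.6 CPM), cDC2 (38.6 and 62.6 CPM), NK cells (28.3 and 43.3 CPM) and mature dendritic cells (27.8 and 74.4 CPM). In mature dendritic cells its log2 ratio was 1.42 (0.98 to 1.88). Socs3, an inhibitor of the Stat3 pathway, was 62.5 and 133 CPM in cDC1, 1.09 (0.79 to 1.39). Of the 9, 1 each was higher in macrophages, cDC2 and mature dendritic cells and 2 each in cDC1 and NK cells, with 0 lower. There 5.11%, 6.3%, 6.85%, 6.64% and 6.15% of all genes were higher. In CD8 T cells 1 was higher, beside 3.31%. In monocytes 0 of the 9 passed 1.5-fold, beside 5.54% of genes higher and 6.22% lower. Regulatory T cells (Cish, -0.68), nonclassical monocytes (Ptpn2, -1.02), CD4 T cells and neutrophils each had 1 lower and 0 higher. Of all genes 12.4%, 11.9%, 14.5% and 19% were lower there.

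Of 24 targets mainly of interferon gamma, 23 were counted in monocytes, macrophages, cDC1, cDC2 and mature dendritic cells, and 6, 8, 10, 6 and 10 of them were at least 1.5-fold higher, with 0 lower, where 5.54%, 5.11%, 6.64%, 6.3% and 6.85% of all genes were higher. At 2-fold the count was 2 in monocytes, 1 in macrophages, 5 in cDC1 and 2 in cDC2. The share of all genes at 2-fold is not given, so these counts have no background beside them. In mature dendritic cells, left out of that count, Iigp1, Cxcl9 and Cxcl10 were past 2-fold, at log2 ratios of 1.14, 1.40 and 1.25. The median log2 ratio of the 23 was 0.35, 0.49, 0.46, 0.43 and 0.39, where the median of all genes was -0.01, -0.04, -0.005, -0.04 and -0.04. Tgtp1, a guanosine triphosphatase induced against intracellular pathogens, was 8.45 and 48.1 CPM in macrophages, a log2 ratio of 2.51 (2.17 to 2.86), and 15.5 and 57.6 CPM in monocytes, 1.89 (1.52 to 2.29). Irf1, a transcription factor induced by interferon gamma, was 285 and 622 CPM in cDC1 and 554 and 1106 CPM in cDC2. Cxcl9 was 330.2 and 873 CPM and Cxcl10 121 and 288 CPM in mature dendritic cells. In monocytes and macrophages Cxcl9 was within 1.5-fold, at log2 ratios of 0.42 (0.37 to 0.48) and 0.40 (0.36 to 0.44). Cxcl10 was level there, at 742 and 746 CPM in monocytes and 308 and 308 CPM in macrophages, and in nonclassical monocytes it was lower, at 483 and 185 CPM, -1.38 (-1.86 to -0.93). Among lymphocytes 4 of 23 were higher in NK cells and 5 of 23 in CD8 T cells, where 6.15% and 3.31% of all genes were. The medians were 0.22 and 0.17, and with a minimum of 50 UMIs none was higher in NK cells. All of these 4 and 5 genes stood within 1.5 times the free RNA estimate in the library labelled Irg1-/-, and 2 and 1 of them at or below it. An example is Il18bp in NK cells, at 9.98 and 16.1 CPM against 11.9 and 18.3 CPM estimated. How much of these levels is free RNA was not tested. In CD4 T cells 6 of 20 were higher, in regulatory T cells 3 of 22, in other T cells 4 of 22 and in B cells 2 of 18, with 0 lower. In these classes 10.4%, 6.79%, 6.11% and 13.2% of all genes were higher and 14.5%, 12.4%, 10.2% and 13.9% lower. Of the higher targets 2, 3, 2 and 1 were within 1.5 times the free RNA estimate. Lower genes were counted in 3 classes, with 4 higher and 3 lower of 22 in nonclassical monocytes (beside 9.98% of genes higher and 11.9% lower), 6 and 2 of 19 in neutrophils (beside 13.3% of genes higher and 19% lower) and 1 and 4 of 13 in eosinophils (beside 15.9% of genes higher and 15.6% lower).

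Of 16 targets mainly of type I interferon, 15 or 16 were counted in these classes. The number at least 1.5-fold higher was 5 in monocytes, 6 in macrophages, 7 in cDC1, 8 in cDC2 and 15 of 15 in mature dendritic cells, with 1 lower in cDC1 (Ifit1), beside the shares of all genes given for these classes above. At 2-fold it was 2, 2, 4 and 3 in the first 4 of these classes, again with no share of all genes at 2-fold beside it. In mature dendritic cells, left out of that count, Ifi44, Isg15 and Irf7 were among those past 2-fold, at log2 ratios of 2.07, 1.58 and 1.53. In mature dendritic cells the median log2 ratio was 0.97, with Isg15 at 119 and 356 CPM and Irf7 at 40.1 and 116 CPM. That class was nearly level for Socs1. In NK cells 8 of 15 were higher, where 6.15% of all genes were. Of these 8, 6 stood within 1.5 times the free RNA estimate in the library labelled Irg1-/-, and 0 at or below it. Among the 6 were Ifit2 at 12.5 and 35.7 CPM against 26.1 and 33.6 CPM estimated, and Isg15 at 60.7 and 118 CPM against 47.0 and 87.7 CPM. How much of these levels is free RNA was not tested. Irf7 in NK cells was above 1.5 times the estimate, at 81.5 and 129.8 CPM against 30.7 and 60.2 CPM. In mature dendritic cells 2 of the 15 were within 1.5 times the estimate. In CD8 T cells 1 was higher and 1 lower, where 3.31% of all genes were higher and 7.9% lower. In CD4 T cells 10 of 14 were higher and 0 lower, beside 10.4% of genes higher and 14.5% lower. The median there was the highest of the 14 classes, 1.27, and 1 of the 10 was within 1.5 times the free RNA estimate. In regulatory T cells 5 were higher and 3 lower of 15, beside 6.79% of genes higher and 12.4% lower. In other T cells 6 were higher and 1 lower of 15, beside 6.11% and 10.2%. B cells had 3 higher and 0 lower of 5, beside 13.2% and 13.9%. Of the higher ones in these classes 1, 0 and 2 were within 1.5 times that estimate. In eosinophils 3 were higher and 6 lower of 11, with a median of -1.33, in neutrophils 3 were higher and 4 lower of 15, and in nonclassical monocytes 0 were higher and 2 lower of 12, in classes where 15.9%, 13.3% and 9.98% of all genes were higher and 15.6%, 19% and 11.9% lower. Ifi44, an interferon-induced gene, was 11.2 and 56.2 CPM in cDC1, a log2 ratio of 2.33 (1.72 to 2.98).

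The other interferon genes were sparse. Of 11 other interferon and receptor genes 2 had at least 20 UMIs in monocytes and in macrophages. Ifnb1, interferon beta, was 5.70 and 1.53 CPM in monocytes, a log2 ratio of -1.90 (-3.12 to -0.79), and 9.11 and 2.12 CPM in macrophages, -2.10 (-2.97 to -1.33). It was lower in the library labelled Irg1-/- in both classes. Il10rb, a chain shared by several cytokine receptors and the neighbor of Ifnar2, was 174 and 170.0 CPM in monocytes.

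Of 15 genes for the production of Ifng, Il12b, a subunit of a cytokine that drives it, was 567 and 1076 CPM in mature dendritic cells, a log2 ratio of 0.93 (0.82 to 1.03), and 47.3 and 73.7 CPM in cDC1. In cDC2 it was 151 and 97.9 CPM, -0.63 (-0.88 to -0.38), the other direction. Il12a, on the same list, had 1 and 0 UMIs in mature dendritic cells. Over all kept cells Il12a had 38 and 16 UMIs, a log2 ratio of -0.99 (-1.94 to -0.12), where that of Il12b was 0.82 (0.73 to 0.90). Il27, which also acts on T and NK cells, was 2.72 and 7.69 CPM in macrophages, 1.498 (0.83 to 2.19). In macrophages 4 of 14 genes were higher and 0 lower, beside 5.11% of genes higher and 6.45% lower, but 3 of the 4 stood within 1.5 times the free RNA estimate. In NK cells 2 of 12 genes were higher and 1 lower, beside 6.15% of genes higher and 8.32% lower. In CD8 T cells 1 of 12 was higher, beside 3.31% of all genes. That gene, Il18, at 4.47 and 8.51 CPM, was at or below the free RNA estimate in the library labelled Irg1-/-.

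The genes whose pattern over the 14 classes and both libraries was most like that of Ifng were Ctsw (a cathepsin of cytotoxic lymphocytes, Pearson r = 0.92), Nrgn (0.91) and Ms4a4b (0.91), by log2(CPM + 1) over 28 sums and 10267 genes. For Ifngr1 they were Spn (0.89), Arl6ip5 (0.89) and Crot (0.86), of which Spn is itself a gate marker. For Socs1 they were Clec2d (0.66), Irf1 (0.64) and Irgm2 (0.64). The 28 sums come from 2 libraries, and the values describe them only.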

How the data were processed

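Counts of UMIs per gene and cell were used as deposited. The authors made them from BD Rhapsody reads with fastp, a UMI-tools barcode whitelist and STAR on the mouse genome (the labels also list CASAVA 1.8 and GRCm38). A cell was kept where it had over 200 genes and mitochondrial UMIs below 10%, mitochondrial genes were removed, and cells were gated on marker genes, with thresholds set after the marker distributions were seen. Doublets were kept, with no caller run. UMIs were summed per class and library. Levels have exact Poisson intervals, shares exact Clopper-Pearson intervals and ratios exact conditional intervals, and a ratio is named from 1.5-fold with at least 20 UMIs over both libraries. No test between genotypes was run. The ratios and their intervals were tested on simulated UMI sums of monocytes and NK cells, and the other steps were not tested in this way.

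The members and gene lists were chosen with earlier results of these data known. The named genes are the members, Acod1 and up to 4 genes per list, class and direction with the largest ratio past 1.5-fold on at least 50 UMIs (else the 2 with the most UMIs), the 3 genes most like Ifng, Ifngr1 and Socs1, and the gate markers, and others named here were chosen after their values were seen. Alternatives were another gate minimum, leaving out deep cells, thinning, cell means, edgeR 4.0.16 TMM factors, a fold of 2 and, chosen after seeing the data, leaving out shared barcodes, subtracting free RNA, setting the interferon targets beside free RNA and the Cxcl9 and Cxcl10 split. Mx1, Tcrg-C1, Tcrg-C2 and Tcrg-C4 were not analysed here, and the list of other Jak and Stat genes is not reported here. Python 3.11.15 with numpy 2.4.6, pandas 2.3.3, scipy 1.17.1 and matplotlib 3.10.9, and R 4.3.3, were used.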

Additional observations from a re-analysis of the deposited data

Results flagged for a closer look

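The log2 ratio of Ifng (Irg1-/- labelled over wild-type) was 0.61 in other T cells and -2.11 in cDC1, opposite directions whose difference was not tested. In other T cells of the library labelled Irg1-/- 1 cell held 107 of the 287 Ifng UMIs of its class, and in wild-type cDC1 1 cell held 53 of 94.

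Ifng was also present in the cells that the filter on mitochondrial UMIs removed (124 and 102 cells). It was 87.8 CPM (49.2 to 145, 15 UMIs) in the wild-type library and 127 CPM (72.7 to 207, 16 UMIs) in the library labelled Irg1-/-. These intervals overlapped, and each held the level of all kept cells of its library, 78.8 and 75.2 CPM.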

How the results depend on the processing

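No paired analysis was possible because each genotype has 1 library. Of 1141 values under alternatives, 986 were scored as the same, by counting error or by 1.5 times, and 154 as moved. Some of the 154 lay beyond counting error but within 1.5 times, such as Ifngr1 at 1902 in place of 1737 CPM in thinned wild-type NK cells. Only 1 ratio with an interval clear of 0 changed sign, that of Ifng in other T cells. It was -0.13 (log2) without the 1% of cells with the most Ifng UMIs. Ratios with intervals that included 0 changed sign under several settings, such as Ifng in CD8 T cells without those cells, and Stat2 with free RNA subtracted, from 0.02 to -0.72 in NK cells and from 0.20 to -1.05 in CD8 T cells. The causes were not tested.

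The Ifng share of CD8 T cells was 48.8% (wild-type) with 1 more marker UMI and 25.3% (Irg1-/- labelled) without the 5% of cells with the most UMIs, where NK cells held 9.04% and 30.6% and the CD8 T log2 ratio was -0.57. In thinned cells CD8 T cells held 42.9% and 21.8% and NK cells 17.6% and 38.8%, and the log2 ratio was -0.29 in CD8 T and 0.21 in NK cells. Thinning also gave Ifngr1 at 1902 and 1716 CPM in NK cells, Ifngr2 at 184 CPM in monocytes and Jak2 at 905 CPM in mature dendritic cells (both Irg1-/- labelled), and log2 ratios of 1.20 for Stat2 in cDC2 and 1.83 for Socs1 in cDC1. Without the 1% of cells with the most Ifng, CD8 T cells held 49.6% and 43.7%, NK cells 9.19% and 23.4%, and the CD8 T ratio was 0.16. By the mean of each cell's CPM, CD8 T cells held 35.7% and 19.7% and NK cells 15.9% and 39.3%, Ifngr1 stood at 1990 and 1697 CPM in NK cells and Jak2 at 977 CPM in wild-type mature dendritic cells. At 2-fold, 2 interferon gamma targets were higher in monocytes and 1 in macrophages, with no share of all genes at 2-fold to set beside them.

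Levels near free RNA, such as Ifngr2 in lymphocytes, and classes of few cells are limited by depth.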
